A study of Mus musculus with 6 samples.

Results

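The genes described here encode the nuclear-encoded subunits of the mitochondrial respiratory chain and ATP synthase, measured in mouse regulatory T cells (Tregs) with and without the sterol regulator SREBP2. They were chosen by gene symbol alone: Nduf genes for complex I (NADH dehydrogenase), Sdha to Sdhd for complex II (succinate dehydrogenase), Uqcr genes and Cyc1 for complex III (cytochrome bc1), Cox4 to Cox8 genes for complex IV (cytochrome c oxidase) and Atp5 genes for complex V (ATP synthase). The rule took 85 of the 24421 genes in the count table, 37 for complex I, 4 for complex II, 9 for complex III, 18 for complex IV and 17 for complex V. Of these, 77 passed the filter on low counts and were tested (36, 4, 9, 11 and 17 by complex). Atp5s and Atp5sl match the rule by symbol but are not subunits of the enzyme. The subunits encoded by the mitochondrial genome were not analysed here, since the table held 0 mitochondrially encoded genes.

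Total RNA was sequenced from Tregs purified from spleen and lymph nodes, with 3 libraries of each genotype. Srebp2WT Tregs (replicates 1, 3 and 5) carried the genotype Srebp2WT/WT-Foxp3YFPCRE+/+, and Srebp2cKO Tregs (replicates 6, 7 and 8) carried Srebp2FL/FL-Foxp3YFPCRE+/-, in which a Cre recombinase driven by the Treg gene Foxp3 removes floxed Srebf2. All libraries thus came from carriers of the Cre, but the Cre genotype was +/+ in Srebp2WT and +/- in Srebp2cKO. The labels do not give the Cre dose per cell. The effects of this difference in Cre genotype and of Srebf2 cannot be told apart. The labels state no age, sex or sorting gate, and none says that libraries of 1 genotype are separate animals, so p-values measure the spread between libraries, which may be technical.

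Complexes I to IV carry electrons from NADH and succinate to oxygen and, except for complex II, pump protons out of the mitochondrial matrix. Complex V lets the protons back through its rotating c ring and uses that flow to make ATP in its F1 head. Tregs are known to rely on mitochondrial oxidation more than conventional effector T cells do, and SREBP2 is known as the activator of cholesterol synthesis and uptake genes.

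Nuclear genes of the respiratory chain are known to share a small set of promoter elements. RefSeq promoter windows (GRCm38.p6, 250 bases before to 50 after a start) were found for 69 of the 85 genes, in 75 windows, and were searched on both strands for 4 motifs. The NRF1 motif, a GC-rich near-palindrome, stood in 24.0% of these windows and in 4.6% of all 32851 promoters of the table. The ETS motif CCGGAAG, which GABP binds, stood in 21.3% against 8.86%, and the YY1 motif AANATGGC in 25.3% against 6.05%. The sterol regulatory element TCACCCCAC stood in 0 of the 75 windows and in 0.551% of all promoters, which says only that these letters are not in these windows. At least 1 of the NRF1, ETS and YY1 motifs was found for 44 genes, more than 1 kind for 7 and none for 25, and no match of one motif overlapped a match of another.

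The following 4 stretches show 1 example of each motif that was found and 1 gene without a match, picked after their values were seen. Each is the part of the 250 bases upstream of a start that lies outside annotated exons, read from the minus strand of GRCm38, 5′ to 3′, with motif letters in capitals. The capitals mark NRF1 motifs in Cox6a1 (chr5:115348982-115349129), an ETS motif on the opposite strand in Uqcrh (chr4:116075072-116075268) and a YY1 motif in Ndufs8 (chr19:3912775-3913024), and Cox7c (chr13:86046905-86047045) has none. The full windows of Cox6a1 and Ndufs8 also held an ETS motif outside the printed stretches (first base at -16 and 16 from the start).
Cox6a1: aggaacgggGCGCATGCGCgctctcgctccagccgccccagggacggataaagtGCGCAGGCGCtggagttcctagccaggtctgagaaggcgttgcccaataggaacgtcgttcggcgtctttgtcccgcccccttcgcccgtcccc
Uqcrh: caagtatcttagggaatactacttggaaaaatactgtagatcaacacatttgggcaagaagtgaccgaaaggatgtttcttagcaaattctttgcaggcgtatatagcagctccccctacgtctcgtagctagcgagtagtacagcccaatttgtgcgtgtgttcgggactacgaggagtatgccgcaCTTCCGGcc
Ndufs8: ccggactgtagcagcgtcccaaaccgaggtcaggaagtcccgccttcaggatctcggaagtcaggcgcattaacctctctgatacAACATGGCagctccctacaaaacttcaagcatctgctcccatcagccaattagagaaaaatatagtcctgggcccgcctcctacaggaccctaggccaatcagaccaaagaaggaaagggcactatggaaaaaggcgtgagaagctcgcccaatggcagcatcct
Cox7c: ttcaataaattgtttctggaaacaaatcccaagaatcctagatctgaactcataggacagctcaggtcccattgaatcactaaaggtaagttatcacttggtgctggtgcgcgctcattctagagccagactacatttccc

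The libraries held 13918321 to 17249898 counts, and Srebf2 itself, on chromosome 15 from 82147181 to 82205379, fell from 191, 192 and 173 CPM in Srebp2WT to 13.7, 12.7 and 10.7 CPM in Srebp2cKO (log2 fold change -3.91, SE 0.11, edgeR adjusted p = 1.5e-08). CPM are counts scaled to library size with TMM factors. Foxp3 stood at 440, 460 and 461 CPM against 466, 420 and 419 CPM, and its libraries overlapped. Summed B cell markers were 56.4 to 77.4 CPM in Srebp2WT and 26.0 to 34.7 CPM in Srebp2cKO. Of 4 tested genes 3 were called lower, where 4.24% of all tested genes were. The other 1 had a positive fold change and was not called. With limma-voom, or with the GC correction described further on, 2 of the 4 were called. Summed myeloid markers were 50.6 to 82.8 against 33.7 to 39.5 CPM, with 1 of 2 called lower. The called one, Cybb, made up nearly all of the myeloid sum (means of 60.7 and 33.1 CPM), while Itgam stood at means of 0.960 and 2.03 CPM (edgeR adjusted p = 0.108). Of the defining genes, Ms4a1, Lyz2 and Cd14 had 0 to 5 counts per library. The sum of 6 Treg markers was 4109 to 4233 against 4115 to 4216 CPM, but its members differed in sign. Il2ra, the high-affinity IL-2 receptor chain, rose from a mean of 691 to 920 CPM (log2 fold change 0.41, edgeR adjusted p = 0.0101), and Ikzf2, the Treg factor Helios, stood at means of 1591 and 1326 CPM (log2 fold change -0.26, edgeR adjusted p = 0.0645, and 0.00494 with the GC correction described further on). In bulk RNA, fewer cells of a type and less RNA per cell cannot be told apart, and the part of other cells in the subunit values was not tested.

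No respiratory chain subunit passed the test: 0 of 77 had an adjusted p under 0.05 in edgeR, where 6.61% of all 11932 tested genes passed (2.37% higher and 4.24% lower in Srebp2cKO). At an unadjusted p under 0.05 there were 20 subunits (26.0%), 15 higher and 5 lower in Srebp2cKO, against 29.1% of all genes (14.8% higher and 14.3% lower). DESeq2 called 4 of the 77 (Atp5c1, Cox7a2l and Cox7c higher, Cox8a lower), where it called 11.8% of all genes, and limma-voom called 0, where it called 6.55%. The median log2 fold change was 0.065 over the 77 genes, with 47 positive and 30 negative, and -0.0002 over all tested genes. Fold changes ran from -0.43 for Cox8a to 0.51 for Uqcrb. The 95% interval lay within ±1 on the log2 scale for all 77 tested genes and within ±0.5 for 56, so changes of 2-fold or more were outside the interval of each gene in this fit.

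**Figure D1:**
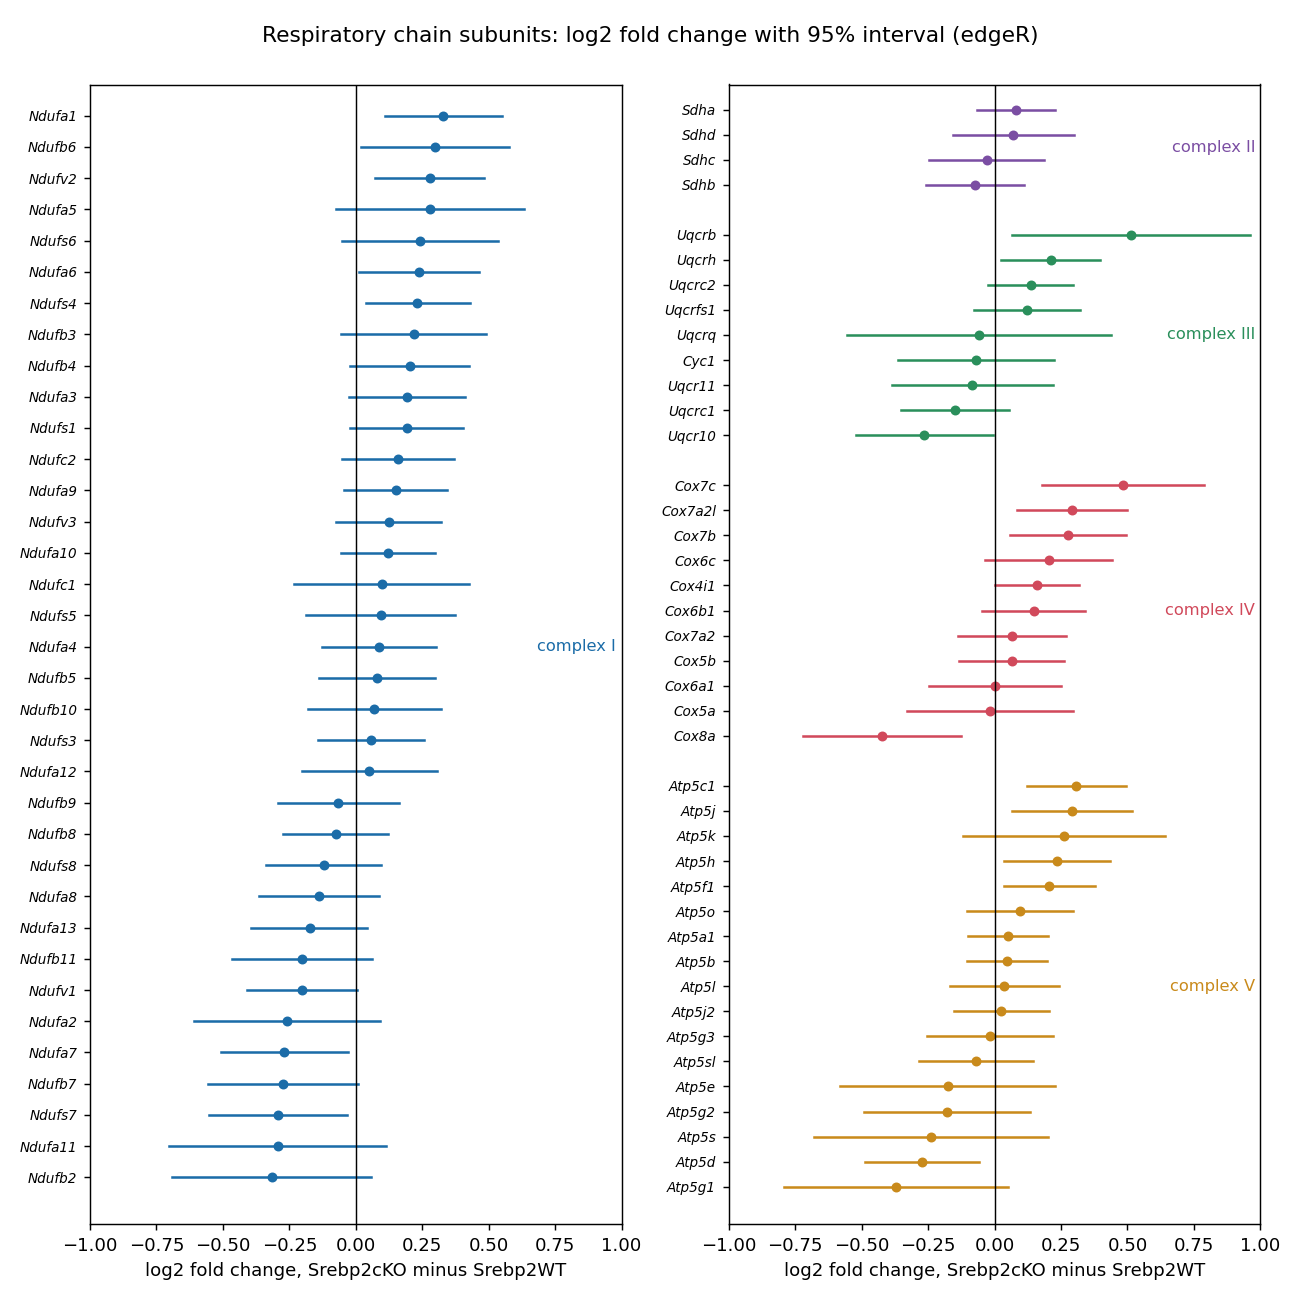
Log2 fold change of tested genes, Srebp2cKO minus Srebp2WT, with its 95% interval from edgeR, grouped by complex and ordered by value. Points run from -0.43 (Cox8a) to 0.51 (Uqcrb), and every interval drawn lies within ±1.

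The 3 libraries of one genotype all stood above the 3 of the other for 23 of the 77 genes (29.9%), where this held for 31.5% of all tested genes. All 3 Srebp2cKO libraries were the higher ones for 18 (23.4%, against 16.0% of all genes) and the lower ones for 5 (6.49%, against 15.5%). Of the 23, complex I held 8 higher and 3 lower, complex II 1 higher, complex III 2 higher and 1 lower, complex IV 4 higher and complex V 3 higher and 1 lower, the last being Atp5s.

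Complex I had a median log2 fold change of 0.084 over 36 tested genes, 22 positive and 14 negative. An unadjusted p under 0.05 in edgeR was reached by 7 (19.4%, against 29.1% of all genes). Its NADH-oxidizing arm, where electrons enter through the flavin of Ndufv1 and a chain of iron-sulfur clusters, had a median of 0.16 over 8 genes. The ubiquinone-reducing arm, which hands the electrons to ubiquinone, had -0.011 over 8, and the membrane arm, which pumps protons, 0.080 over 19. After correction for transcript GC content, described further on, these medians were 0.069, 0.081 and 0.092, so the order of the arms did not hold.

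Ndufa1, a small subunit of the membrane arm needed for assembly (chrX:37187588-37191163), had the smallest p in complex I. Its level was 16.7, 16.4 and 16.9 CPM in Srebp2WT replicates 1, 3 and 5 and 20.1, 21.3 and 21.3 CPM in Srebp2cKO replicates 6, 7 and 8. The libraries of each genotype lay close together and the genotypes did not overlap (log2 fold change 0.33, SE 0.099, edgeR adjusted p = 0.0702). After GC correction the fold change was 0.26.

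Ndufv2, which carries an iron-sulfur cluster next to the flavin site, stood at 48.1, 45.6 and 50.4 CPM against 51.9, 62.3 and 60.3 CPM. The Srebp2cKO libraries were all higher, replicate 6 only slightly so (log2 fold change 0.28, SE 0.093, edgeR adjusted p = 0.0890; 0.079 after GC correction). Ndufs4, an accessory subunit of the same arm whose loss in people causes Leigh syndrome, stood at 34.9, 34.9 and 37.2 against 39.2, 45.3 and 41.0 CPM, again without overlap (log2 fold change 0.23, edgeR adjusted p = 0.12; 0.058 after GC correction). Ndufs1, the largest iron-sulfur subunit, stood at 64.2, 64.6 and 77.0 against 71.8, 80.3 and 82.8 CPM, with Srebp2WT replicate 5 inside the Srebp2cKO range.

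Other core subunits stood lower in Srebp2cKO without passing the test. Ndufs7, which holds the last iron-sulfur cluster before ubiquinone, had 25.9, 26.7 and 21.9 CPM against 21.3, 21.4 and 18.2 CPM. The genotypes did not overlap, though Srebp2WT replicate 5 was near the upper Srebp2cKO libraries (log2 fold change -0.29, SE 0.12, edgeR adjusted p = 0.132; -0.015 after GC correction). Ndufv1, the flavoprotein that oxidizes NADH, had 44.2, 45.2 and 42.3 against 42.0, 34.4 and 38.1 CPM, also without overlap (log2 fold change -0.20, edgeR adjusted p = 0.180; -0.056 after GC correction).

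Ndufa6, an accessory subunit of the ubiquinone-reducing arm, lies on chromosome 15 from 82350140 to 82354322, and its start is 0.203 Mb from that of Srebf2. It stood at 31.9, 33.1 and 37.5 CPM in Srebp2WT and 44.5, 37.4 and 39.1 CPM in Srebp2cKO, with overlap between Srebp2WT replicate 5 and Srebp2cKO replicate 7 (log2 fold change 0.24, SE 0.10, edgeR adjusted p = 0.152). After GC correction the fold change was 0.31 (edgeR adjusted p = 0.0737). Ndufa6 was the only subunit within 2 Mb of the deleted gene. Ndufa4, named for complex I but known as a component of complex IV, stood at 31.3, 34.5 and 38.5 against 36.3, 38.3 and 36.1 CPM, with overlapping libraries.

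Complex II is encoded by nuclear genes alone, and none of its 4 genes had an unadjusted p under 0.05. Sdha, the flavoprotein that oxidizes succinate (chr13:74322254-74350280), stood at 201, 195 and 199 CPM against 205, 210 and 214 CPM. The genotypes did not overlap, but the difference was small (log2 fold change 0.081, 95% interval -0.066 to 0.23, edgeR adjusted p = 0.439; 0.036 after GC correction). Sdhb, its iron-sulfur partner, stood at 46.7, 50.6 and 53.1 against 49.1, 46.5 and 47.3 CPM. The membrane anchors overlapped as well: Sdhc had 37.3, 35.7 and 37.5 against 38.2, 31.6 and 38.4 CPM, and Sdhd had 31.8, 30.3 and 37.8 against 33.1, 36.0 and 35.7 CPM.

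Complex III had a median of -0.057 over 9 genes, 4 positive and 5 negative, and its genes spread more widely than those of complex II. Uqcrb, the small ubiquinone-binding subunit (chr13:66900617-66905378), had the largest positive fold change of all subunits and an uneven pattern behind it. Its level was 26.1, 28.3 and 38.7 CPM in Srebp2WT and 34.3, 59.3 and 39.0 CPM in Srebp2cKO. Srebp2cKO replicate 7 stood far above the other libraries, and the remaining values overlapped (log2 fold change 0.51, SE 0.20, 95% interval 0.065 to 0.96, edgeR adjusted p = 0.129; 0.32 after GC correction). Uqcrh, the hinge protein between cytochrome c1 and cytochrome c, stood at 82.5, 89.4 and 99.5 against 104, 103 and 108 CPM. All Srebp2cKO libraries were higher and lay close together (log2 fold change 0.21, SE 0.084, edgeR adjusted p = 0.130). After GC correction the fold change was 0.20. Uqcr10, another small subunit, stood at 20.9, 22.6 and 23.6 against 20.8, 16.4 and 18.7 CPM, lower without overlap by a narrow margin (log2 fold change -0.27, edgeR adjusted p = 0.163; -0.15 after GC correction).

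The redox centres of complex III showed no separation of the genotypes. Cyc1, cytochrome c1, had 34.7, 35.5 and 32.5 CPM against 38.3, 25.7 and 33.9 CPM, so that the Srebp2cKO libraries held both the highest and the lowest value. Uqcrfs1, the Rieske iron-sulfur protein, had 36.3, 39.4 and 41.0 against 39.9, 41.7 and 45.3 CPM. The core proteins Uqcrc1 and Uqcrc2 form a heterodimer facing the matrix. Uqcrc1 had 86.2, 92.2 and 79.9 against 83.8, 69.6 and 79.5 CPM and overlapped. Uqcrc2 had 99.6, 92.4 and 96.6 against 102, 108 and 107 CPM without overlap (log2 fold change 0.14, edgeR adjusted p = 0.233), and its fold change was -0.007 after GC correction.

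Complex IV had the highest median of the 5 complexes, 0.15 over 11 tested genes, with 9 positive and 2 negative. Of these 11 genes, 5 had an unadjusted p under 0.05 in edgeR (45.5%, against 29.1% of all genes). The nuclear subunits of this enzyme surround the mitochondrially encoded catalytic core. Cox7c, one of the small membrane subunits (chr13:86044816-86046904), stood at 42.0, 45.1 and 51.6 CPM in Srebp2WT and 53.0, 78.6 and 62.2 CPM in Srebp2cKO. The genotypes did not overlap, Srebp2cKO replicate 7 was the highest and replicate 6 was close to Srebp2WT replicate 5 (log2 fold change 0.48, SE 0.14, edgeR adjusted p = 0.0611). DESeq2 called it (adjusted p = 0.0149), and after GC correction its fold change was 0.39.

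Cox7a2l, which links complexes III and IV in supercomplexes (chr17:83501918-83517330), stood at 156, 189 and 161 CPM against 189, 221 and 208 CPM. Srebp2WT replicate 3 and Srebp2cKO replicate 6 nearly met (log2 fold change 0.29, SE 0.094, edgeR adjusted p = 0.0827, DESeq2 adjusted p = 0.0455). After GC correction the fold change was 0.28. Cox7b, a small membrane subunit on the X chromosome, stood at 43.5, 46.7 and 54.9 against 55.7, 59.7 and 60.2 CPM, with Srebp2WT replicate 5 just under the Srebp2cKO libraries (log2 fold change 0.28, edgeR adjusted p = 0.105; 0.083 after GC correction). Cox8a, another small membrane subunit (chr19:7215153-7217616), went against the others with 40.8, 42.3 and 36.0 CPM in Srebp2WT and 36.1, 24.8 and 28.0 CPM in Srebp2cKO. Srebp2WT replicate 5 and Srebp2cKO replicate 6 were level, and the other Srebp2cKO libraries were lower (log2 fold change -0.43, SE 0.13, edgeR adjusted p = 0.0787; DESeq2 adjusted p = 0.0369), and after GC correction its fold change was -0.22.

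Cox4i1, the subunit through which ATP regulates the enzyme (chr8:120668222-120674207), stood at 118, 116 and 127 CPM in Srebp2WT and 137, 131 and 135 CPM in Srebp2cKO. The genotypes did not overlap (log2 fold change 0.16, SE 0.071, edgeR adjusted p = 0.167). After GC correction the fold change was 0.34, and this was the only subunit that edgeR then called (adjusted p = 0.0310), where 5.73% of genes were called. Cox5a and Cox5b, which cap the enzyme on the matrix side, did not separate. Cox5a had 27.6, 30.5 and 33.5 against 34.0, 23.6 and 33.1 CPM, and Cox5b had 32.5, 34.8 and 37.1 against 38.3, 35.2 and 35.6 CPM.

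Complex V had a median of 0.037 over 17 tested genes, 10 positive and 7 negative. An unadjusted p under 0.05 in edgeR was reached by 5 (29.4%, against 29.1% of all genes). Atp5c1, the gamma subunit that turns inside the F1 head (chr2:10056016-10080510), came nearest to the threshold of all 77 genes. It stood at 113, 123 and 135 CPM in Srebp2WT and 145, 157 and 158 CPM in Srebp2cKO. All Srebp2cKO libraries were higher (log2 fold change 0.31, SE 0.084, 95% interval 0.12 to 0.49, edgeR adjusted p = 0.0538, DESeq2 adjusted p = 0.0188). After GC correction it was not called (log2 fold change 0.25, edgeR adjusted p = 0.0619). Without Srebp2WT replicate 5 or without Srebp2cKO replicate 6 the edgeR adjusted p was 0.0366 or 0.0386. Only these fits with a library left out are given here, and without replicate 6 more of all tested genes were called as well. For the fit without Srebp2WT replicate 5 the number of all genes called is not given.

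The alpha and beta subunits around it had smaller differences. Atp5a1, the alpha subunit, stood at 372, 372 and 383 against 393, 376 and 399 CPM, and Atp5b, the catalytic beta subunit, at 349, 365 and 365 against 372, 362 and 381 CPM. Both overlapped (log2 fold changes 0.051 and 0.046, edgeR adjusted p = 0.647 and 0.683). Atp5d, the delta subunit of the central stalk, stood at 73.9, 76.0 and 63.6 against 64.0, 53.7 and 59.1 CPM. Only Srebp2WT replicate 5 fell within the Srebp2cKO range (log2 fold change -0.27, SE 0.098, edgeR adjusted p = 0.105; 0.009 after GC correction).

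All 4 peripheral stalk genes, whose products hold the F1 head still while the rotor turns, had positive values, with a median of 0.22 (0.20 after GC correction). Atp5j, coupling factor 6 (chr16:84827866-84835625), stood at 44.9, 49.9 and 56.0 against 58.0, 67.1 and 59.3 CPM without overlap (log2 fold change 0.29, SE 0.10, edgeR adjusted p = 0.101). After GC correction its fold change was 0.42, the highest of the 77 tested genes (edgeR adjusted p = 0.0612). Atp5f1, the long b subunit, stood at 97.8, 98.4 and 111 against 116, 121 and 117 CPM without overlap (log2 fold change 0.21, edgeR adjusted p = 0.118, and 0.18 as fold change after GC correction). Atp5h, the d subunit, named after its values were seen to complete the stalk, stood at 72.4, 77.6 and 88.7 against 94.6, 97.8 and 88.5 CPM and overlapped by a narrow margin. Atp5o, the oligomycin sensitivity protein that joins stalk and head, also added for that purpose, stood at 51.1, 58.6 and 52.5 against 56.9, 54.4 and 62.2 CPM and overlapped.

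**Figure D2:**
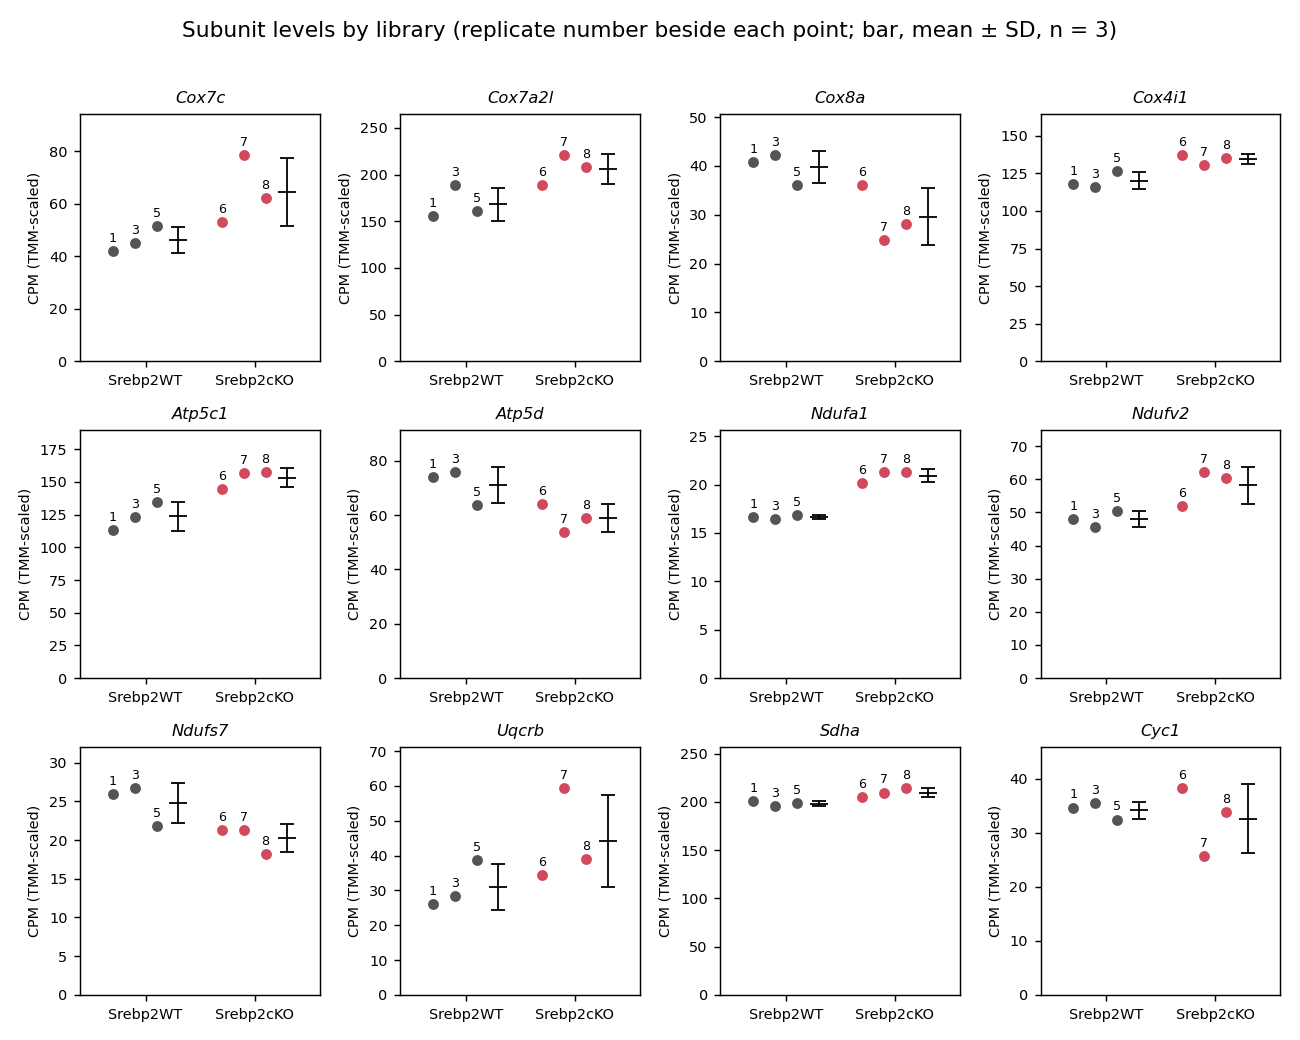
Level of 12 subunit transcripts in each library, in TMM-scaled CPM on axes that start at 0, with the replicate number above each point and mean ± SD (n = 3) beside the points. The Ndufa1 libraries lie at 16.4 to 16.9 CPM in Srebp2WT and 20.1 to 21.3 CPM in Srebp2cKO, while for Uqcrb and Cox7c replicate 7 stands above the other Srebp2cKO libraries.

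Several subunits have isoforms, and transcripts of some of these forms were at or near 0. Cox4i2, Cox6a2, Cox7b2, Cox8b, Cox8c and Ndufa4l2 had 0 counts in all 6 libraries, and 3 counts would be 0.174 to 0.216 CPM of the library totals, which is the limit that a count of 0 allows (counting error only). Cox6b2 had 3, 1 and 4 counts in Srebp2WT and 2, 6 and 4 in Srebp2cKO, and Cox7a1, the heart and muscle form, had 0, 3 and 5 against 0, 7 and 3. These 8 genes were not tested. Cox6b1 made up 99.7 ± 0.15% of its family's level per length in Srebp2WT and 99.6 ± 0.15% in Srebp2cKO (mean ± SD, n = 3). Cox7a2l made up 75.3 ± 2.6% of the Cox7a family in Srebp2WT and 78.1 ± 1.2% in Srebp2cKO, a difference about the size of the spread between libraries.

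The c ring is built from 1 protein that Atp5g1, Atp5g2 and Atp5g3 all encode with different import signals. All 3 had negative values that did not pass the test (log2 fold changes -0.37, -0.18 and -0.019, edgeR adjusted p = 0.219, 0.420 and 0.924), and after GC correction they had -0.24, -0.035 and -0.025. Atp5g1 stood at 21.6, 19.8 and 15.2 CPM against 16.7, 10.5 and 16.6 CPM, and Atp5g2 at 47.4, 45.3 and 37.4 against 46.0, 31.3 and 37.8 CPM. Atp5g3 stood at 60.2, 60.3 and 71.0 against 68.2, 54.5 and 66.4 CPM. In each, Srebp2cKO replicate 7 was the lowest library and the genotypes overlapped. Per length, Atp5g3 made up 49.7 ± 6.0% of the family in Srebp2WT and 53.6 ± 2.3% in Srebp2cKO, Atp5g2 32.8 ± 3.3% and 31.7 ± 1.9%, and Atp5g1 17.5 ± 2.7% and 14.7 ± 1.7%.

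Per length of transcript, subunit levels differed far more between genes than between genotypes. In CPM per kb, the median gene of complex I stood at 29.9 in Srebp2WT, of complex II at 35.5, of complex III at 50.8, of complex IV at 72.2 and of complex V at 63.9. Atp5b had the highest level per length (188 and 194 CPM per kb), and Uqcrh (165 in Srebp2WT), Cox4i1 (161), Cox7a2l (156) and Atp5a1 (152) came near it. Sdha (68.3 CPM per kb in Srebp2WT) stood well above its membrane partner Sdhc (11.6), although the enzyme holds 1 copy of each. These values rest on 1 chosen transcript per gene, and another choice of transcript would shift them.

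**Figure D3:**
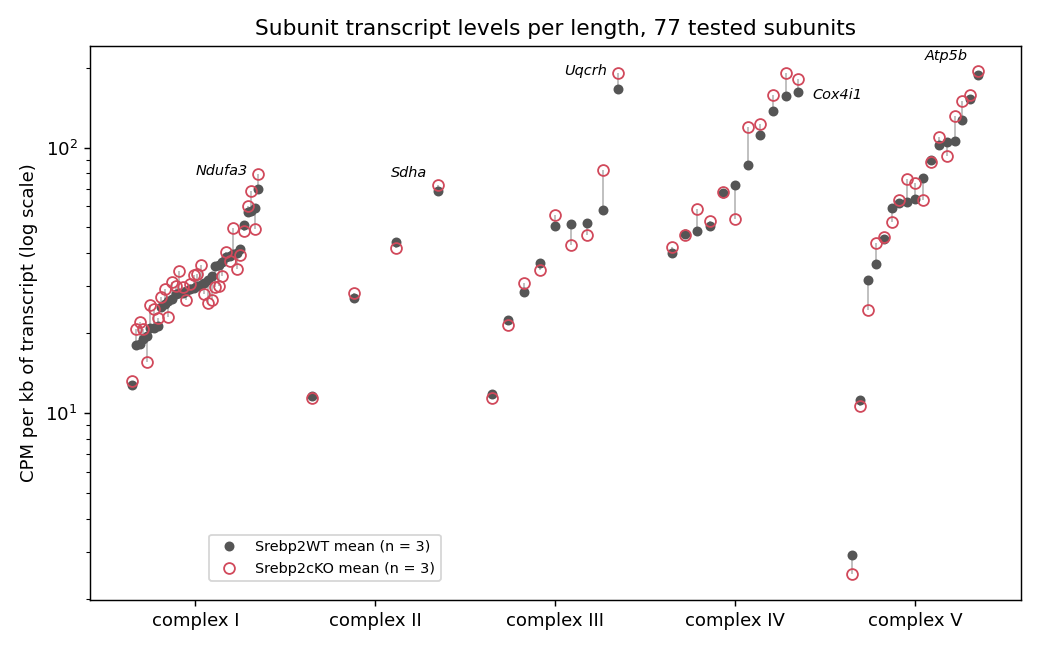
Mean level per length of the 77 tested genes (CPM per kb of transcript, log scale) in Srebp2WT (filled, n = 3) and Srebp2cKO (open, n = 3), ordered by the Srebp2WT level within each complex. Levels run from 2.93 (Atp5s) to 188 (Atp5b) CPM per kb in Srebp2WT, while the genotypes of a gene lie close together.

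Summed over the 85 genes, subunit transcripts held 3887, 4038 and 4171 CPM in Srebp2WT and 4280, 4224 and 4284 CPM in Srebp2cKO, a ratio of means of 1.06. The genotypes did not overlap with TMM scaling, but with scaling to total counts alone they did (3990, 4044 and 4194 against 4187, 4187 and 4259 CPM). Complex IV stood at 660, 705 and 730 CPM against 762, 822 and 784 CPM (698 ± 35.9 and 789 ± 30.4, mean ± SD, n = 3, ratio 1.13). Its genotypes did not overlap under either scaling, but under total counts this depended on Cox7a2l. That supercomplex factor had the highest level in the sum (means of 168 and 206 CPM with TMM factors). Complex III stood at 420, 437 and 444 against 464, 448 and 464 CPM, without overlap under TMM scaling and with it under total counts. Complexes I (1030, 1075 and 1113 against 1124, 1095 and 1091 CPM), II (316, 312 and 327 against 325, 324 and 336 CPM) and V (1461, 1509 and 1557 against 1605, 1535 and 1609 CPM) overlapped. These sums are given as values with no test, and a few abundant genes weigh most in each.

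**Figure D4:**
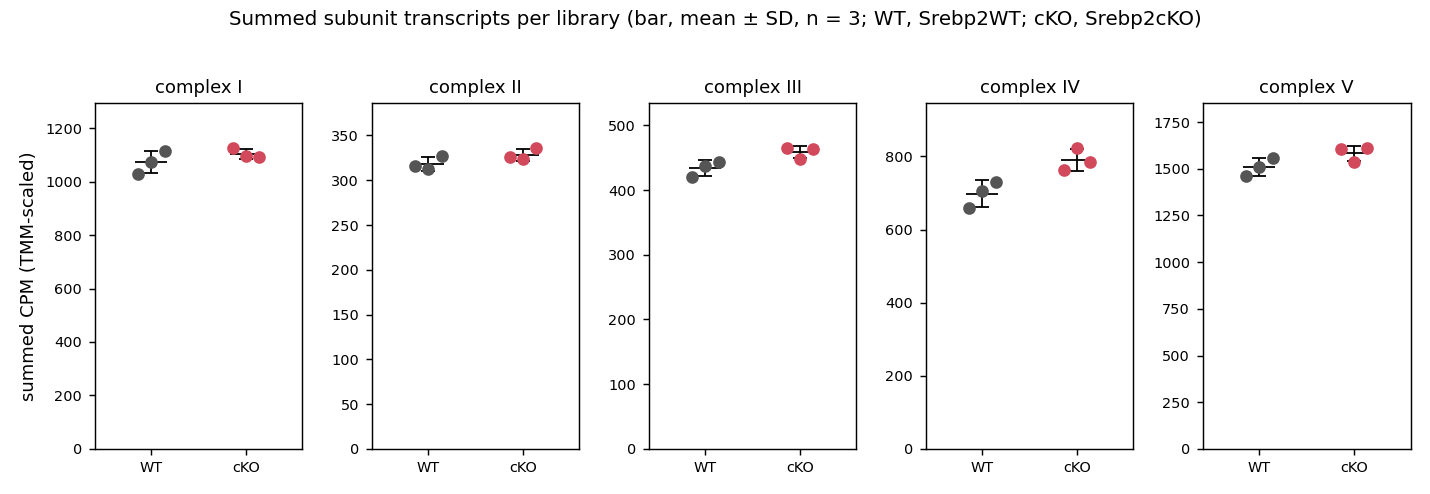
Summed CPM of all genes of each complex per library, on axes that start at 0, with mean ± SD (n = 3). Complexes III and IV show no overlap between genotypes, and the ratio of means is highest for complex IV (1.13).

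The fold changes of the subunits followed the GC content of their transcripts. Across the 77 tested genes Spearman's rho of log2 fold change and GC content was -0.61, as a description of genes that share the same 6 libraries, and across all 11829 tested genes with a GC value it was -0.51. Within complexes rho was -0.67 for complex I (36 genes), -0.83 for complex III (9), -0.59 for complex IV (11) and -0.31 for complex V (17), while with transcript length it was 0.01 over the 77. Of the 27 genes with the lowest GC content (39.0 to 49.9%), 24 had a positive fold change (median 0.19, against 0.12 for all genes in that GC range). Of the 26 with the highest (54.4 to 61.1%), 20 had a negative one (median -0.14, against -0.18), and the 24 between them had a median of 0.061 (against -0.041).

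This relation also differed between libraries of 1 genotype. Relative to the mean of the 6 libraries, the slope of subunit levels on GC was 0.18 log2 units per 10 points of GC content in Srebp2WT replicates 1 and 3 and 0.01 in replicate 5. In Srebp2cKO it was 0.04 in replicate 6, -0.25 in replicate 7 and -0.17 in replicate 8. Srebp2WT replicate 5 was the library farthest from its genotype's mean for 42 of the 77 genes, and Srebp2cKO replicate 7 for 34. A library effect of this kind and an effect of genotype on GC-rich transcripts cannot be told apart with these libraries.

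With a GC trend taken out of each library, rho over the subunits was -0.13 and the median fold change 0.067, with 53 positive and 24 negative. The complexes then had medians of 0.075 (I), 0.030 (II), 0.044 (III), 0.15 (IV) and 0.013 (V), so that the sign of complex III turned. The number with an unadjusted p under 0.05 was 16 (20.8%, against 21.5% of all genes). Among core subunits such as Ndufv1, Ndufs7 or Cyc1, 10 of 23 had a positive value before and 14 after the correction, and among the 52 tested accessory subunits 37 did before and 39 after.

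**Figure D5:**
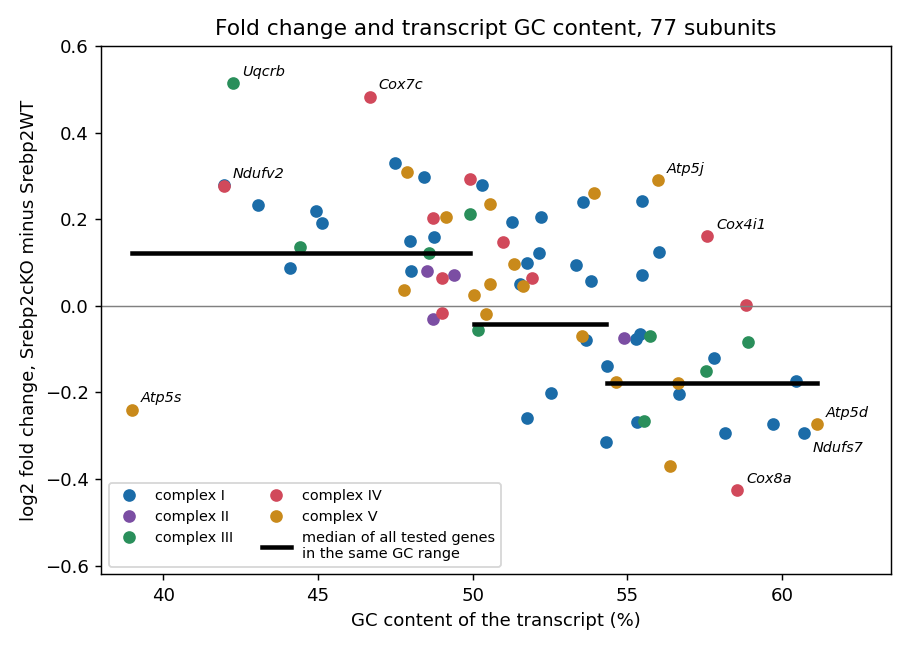
Log2 fold change (Srebp2cKO minus Srebp2WT) of the 77 tested genes against the GC content of their transcripts (%), coloured by complex, with bars for the median of all tested genes in the same GC range. Subunits and bars both go down from left to right, and the bars stand at 0.12, -0.041 and -0.18.

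Fold changes were also set beside the promoter motifs, as a description with no test. The median was 0.094 for 17 tested genes with the NRF1 motif and 0.060 for 48 without, 0.047 for 16 with the ETS motif and 0.080 for 49 without, and 0.075 for 18 with the YY1 motif and 0.065 for 47 without. Of the examples printed above, Cox6a1, with NRF1 and ETS motifs in its window, had a fold change of 0.002 (0.22 after GC correction). Ndufs8, with YY1 and ETS motifs in its window, had -0.12 (0.068 after GC correction). Uqcrh, with the ETS motif, had 0.21, and Cox7c, without a match, had 0.48 (0.20 and 0.39 after GC correction). None of these examples passed the threshold in edgeR.

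Genes that serve the respiratory chain without belonging to it were counted in 6 lists, against the 6.61% of all genes called in edgeR, the 29.1% with an unadjusted p under 0.05 and the 11.8% called by DESeq2. Of 48 tested assembly factors, which help build the complexes, 0 passed in edgeR (7 at an unadjusted p under 0.05, DESeq2 0, limma-voom 0), with a median of 0.053. Of 7 partners outside the symbol rule, such as Cycs, the electron carrier cytochrome c, 0 passed (2 unadjusted, DESeq2 0, limma-voom 0), with a median of 0.21. Of 77 mitochondrial ribosomal proteins, which translate the mitochondrially encoded subunits, 1 passed (7 unadjusted), with a median of 0.040. This was Mrpl52, a protein of the large subunit, which fell from 26.6, 29.6 and 27.1 CPM to 21.2, 18.5 and 22.3 CPM without overlap (log2 fold change -0.43, SE 0.11, edgeR adjusted p = 0.0418), and was no longer called after GC correction (adjusted p = 0.105) or without Srebp2WT replicate 1 or 3 or Srebp2cKO replicate 7 or 8.

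Of 16 citric acid cycle genes, which feed NADH and succinate to the chain, 0 passed (2 unadjusted, DESeq2 1, limma-voom 0), with a median of 0.066. Of 23 tested genes for protein import 0 passed (5 unadjusted, DESeq2 1, limma-voom 0), with a median of -0.001. Of 12 tested regulators of respiratory genes 0 passed (5 unadjusted, DESeq2 0, limma-voom 0), with a median of 0.075. Among them was Myc, a growth regulator that also drives mitochondrial genes, at 113, 115 and 114 CPM in Srebp2WT and 144, 147 and 120 CPM in Srebp2cKO. Its genotypes did not overlap (log2 fold change 0.26, edgeR adjusted p = 0.0906), and after GC correction it was called (log2 fold change 0.46, adjusted p = 0.020). After GC correction the list medians were -0.008 for assembly factors, 0.053 for partners, 0.054 for mitochondrial ribosomal proteins, 0.028 for the citric acid cycle, 0.011 for import and 0.006 for regulators, so that those of assembly factors and import turned sign.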

How the data were processed

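Libraries were prepared from RNeasy-purified RNA with KAPA RNA HyperPrep and RiboErase depletion of ribosomal RNA, per the labels' protocols. The authors deposited raw counts per gene symbol for the 6 libraries. HISAT2 2.2.1, Cell Ranger and mm10 appear in the submitters' processing notes without their roles. For the counter, annotation and strand setting nothing is given in the sources used here. Counts of overlapping genes, antisense genes and genes with near-identical copies, such as processed pseudogenes, are therefore uncertain.

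Genes kept by filterByExpr (11932) were tested with edgeR 4.0.16 (R 4.3.3) by its quasi-likelihood F test (TMM factors, all 6 libraries, no covariate). P-values were adjusted over all tested genes by the Benjamini-Hochberg method, with calls at an adjusted p under 0.05. The SE is the size of the log2 fold change divided by the square root of F. Libraries of 1 genotype differed from each other beyond sampling noise (chi-square of 6.98 to 36.9 per degree of freedom), and each was 1 replicate. Transcript GC and length came from GENCODE M21 (GRCm38), with 1 protein-coding transcript per gene. For the GC correction, log2 CPM were smoothed on GC in each library with loess (span 0.3), and the fitted values entered as offsets. Promoters came from RefSeq (GRCm38.p6). The fit was tested on simulated data whose changes were larger than those of most subunits, and the outcome is not given here.

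The alternatives were DESeq2 1.42.0, limma-voom (limma 3.58.1), scaling by RLE, by upper quartiles or by total counts, no filter, a filter of 1 CPM in 3 libraries, GC and length corrections, a false discovery rate of 0.1, other member rules and leaving out each library. GC correction with each library left out was added after seeing the data. The members and lists were chosen with earlier results of these data known. Named genes were the up to 4 with the smallest p in each complex, core and catalytic subunits, isoform families, subunits within 2 Mb of Srebf2, and list genes that passed. Single values of some of these genes are left out of the text and plots. Ndufs8, Atp5h, Atp5o, Atp5s, Cycs, Myc, Cybb, Itgam, Il2ra and Ikzf2 were named after their values were seen. The B cell, myeloid and Treg marker sums stand in the results. Of the other marker lists, CD8 T cell genes summed to 6.97 to 7.39 CPM in Srebp2WT and 8.77 to 10.5 CPM in Srebp2cKO, NK cell genes to 10.6 to 17.2 and 8.26 to 9.33 CPM (1 of 2 tested lower), plasma cell genes to 63.4 to 66.7 and 61.5 to 64.9 CPM, and erythroid genes to 0.135 to 0.251 and 0 to 0.700 CPM.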

Additional observations from a re-analysis of the deposited data

How the results depend on the processing

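No paired analysis was run, since the labels name no pairs. The genotypes share no replicate numbers (1, 3 and 5 against 6, 7 and 8). In place of 0 called subunits, edgeR called 3 without a filter on low counts, 1 with GC correction and 6 at a false discovery rate of 0.1, and DESeq2 called 4. Leaving out 1 library gave 0 to 5 called subunits (2 without Srebp2WT replicate 5, 5 without Srebp2cKO replicate 6). The number of all genes called without Srebp2WT replicate 5 is not given, so the 2 has no background beside it. GC correction together with leaving out 1 library, chosen after seeing the data, gave 0 to 6. For Srebp2WT this was 1 with replicate 3 and 6 with replicate 5 left out, and for Srebp2cKO 2 with replicate 6 left out. The share of all genes called with GC correction and a library left out is not given, so 0 to 6 has no background beside it. All other scalings, the stricter filter, limma-voom, the length correction and the member list without Atp5s and Atp5sl gave 0.

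Of all genes, 789 were called in edgeR, 1404 with DESeq2, 1205 without a filter and 1893 at a false discovery rate of 0.1. Leaving out 1 library gave 167 to 1487 (167 and 184 without Srebp2WT replicates 1 and 3, 298 and 439 without Srebp2cKO replicates 7 and 8, 1487 without replicate 6). The share of calls that were higher in Srebp2cKO was 35.9%, and 24.4% with total counts alone, which moved the median of all genes from -0.0002 to -0.0334. With 1 library left out this share was 15.8% to 47.1% (19.2% and 15.8% without Srebp2WT replicates 1 and 3, 47.1%, 25.2% and 21.9% without Srebp2cKO replicates 6, 7 and 8).

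The median of all subunits stayed positive under every alternative, between 0.032 and 0.102, and so did those of complexes I, IV and V. That of complex III was -0.195 without Srebp2cKO replicate 6 and 0.115 without replicate 7. That of complex II ranged from -0.022 to 0.047.

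Some small fold changes turned sign, and the cause was not tested. With GC correction Atp5d had 0.009, Cyc1 0.044, Sdhb 0.024, Uqcrc1 0.028, Uqcrc2 -0.007 and Ndufa4 -0.06. Cox6a1 had -0.02 with upper-quartile scaling, -0.032 with total counts, -0.001 with the filter of 1 CPM, -0.025 with length correction and -0.072 to 0.097 with a library left out. With a library left out Atp5g3 ranged from -0.077 to 0.07 and Cox5a from -0.106 to 0.129, both positive without Srebp2WT replicate 5 or Srebp2cKO replicate 7. Without Srebp2cKO replicate 7 the values of Cyc1 and Sdhc also turned positive (ranges -0.195 to 0.068 and -0.079 to 0.051).

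In the lists, assembly factors had 1 call instead of 0 with upper-quartile scaling, total counts, the 1 CPM filter and length correction, and 0 to 1 with a library left out. Mitochondrial ribosomal proteins had 2 with DESeq2 or no filter, 0 with GC correction and 0 to 2 with a library left out. The citric acid cycle and import each had 1 with DESeq2 and 0 to 2 with a library left out, regulators 1 with GC correction and 0 to 2, and partners 0 to 1 (most without Srebp2cKO replicate 6). The median SE of a subunit was 0.099 on the log2 scale, with 3 libraries per genotype.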
